A study of Mus musculus with 10 samples.

Results

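Messenger RNA of 46 cell cycle genes was measured by RNA sequencing in the microdissected tail bud of mouse embryos whose stage is labelled e12point5. The genes were chosen by symbol, with no threshold on their values, as the cyclins, cyclin-dependent kinases (CDKs) and their inhibitors, the Rb and E2F families, the replication licensing factors and the mitotic regulators. Earlier results of these data were known when the genes were chosen. All 46 were found among the 38720 symbols of the count table, and all 46 were among the 16340 genes that passed the filter on low counts. By role they comprised 8 genes of G1 phase, 10 of the Rb and E2F families, 14 of S phase entry and replication, and 14 of G2 phase and mitosis. By its title, the series concerns how Lin28 and let-7 act on elongation of the caudal body axis.

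The 10 libraries formed 3 groups. Lin28a-induced embryos (replicates 2, 3, 4 and 5, n = 4) carried the transgene TRE-Lin28a, the allele RLSL-rtTA and FoxD1-Cre, and were dox-treated. In this design Cre activates rtTA, which drives Lin28a from the TRE promoter in the presence of doxycycline, so induction follows the cells and descendants in which FoxD1-Cre has acted. No-Cre embryos (replicates 6, 7 and 8, n = 3) carried TRE-Lin28a and RLSL-rtTA without Cre and were also dox-treated. The labels of wild-type embryos (replicates 1, 2 and 3, n = 3) name no transgene and no doxycycline. Lin28a-induced and no-Cre libraries thus share both transgenes and the drug and differ in the FoxD1-Cre allele, whereas a comparison with wild type also carries the transgenes and doxycycline. Whether each library came from its own embryo is not stated, and the p-values therefore reflect library-to-library spread, which may be technical.

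The cell cycle is driven by cyclins that bind and activate CDKs. Cyclin D with Cdk4 or Cdk6, and then cyclin E with Cdk2, phosphorylate the pocket proteins Rb, p107 and p130, which releases E2F factors to switch on genes for DNA replication; the MCM helicase is loaded at origins by Cdc6 and Cdt1, and geminin blocks a repeat of that loading. Cyclin A and cyclin B with Cdk1 then carry the cell into mitosis, where Aurora and Polo kinases build the spindle and Bub1, BubR1 and Cdc20 govern the anaphase checkpoint. Lin28 proteins block the maturation of let-7 microRNAs, and in human cells let-7 has been reported to repress CDK6, CDC25A and CCND2.

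Promoters are shown first, because E2F factors and the mitotic CHR element are the textbook routes by which genes of these roles are switched on in phase. RefSeq promoters (GRCm38.p6, 250 bases before to 50 after each start) were matched for 36 of the 46 genes. The E2F words searched on both strands were the word TTGGCGC, the word TTCCCGC, the word TTCGCGC and the word TTGCCGC. A gene was counted once, with a word in any of its promoters, and 17 of the 36 genes (47.2%) held at least 1. The share was 18.7% of 11196 tested genes and 10.9% of all 27025 genes with promoters of the same length. By role it was 8 of 11 for S phase, 5 of 8 for the Rb and E2F families, 3 of 11 for G2 and mitosis and 1 of 6 for G1. The capitals below mark the E2F word, or overlapping words on both strands, in a window of 30 bases on the gene's strand.
Rbl1: agaaggcgattTTCGCGCgctttgtcgcgg
Cdc25a: gtgaattccgtTTGGCGCCAActaggaaag
Mcm6: attggacgggtTTGGCGCGAAgtagctcag
Mcm5: cgccaagaactTTCGCGCCAAaacgtccag
E2f8: agaggcgcggaTTGGCGCgcggggccccgg
These windows lie at chr2:157204533-157204562, chr9:109875502-109875531, chr1:128359733-128359762, chr8:75109346-75109375 and chr7:48881689-48881718, in the order given.

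The CHR words TTTGAA and TTCGAA, searched on both strands, were counted by gene in the same way. They stood in 10 of 11 G2 and mitosis genes (90.9%), 4 of 8 of the Rb and E2F families, 2 of 11 S phase genes and 0 of 6 G1 genes. Among tested genes with a promoter the share was 16.1%, and among all genes with a promoter 21.7%. The CCAAT word was in a promoter of 11 of 11 G2 and mitosis genes, against 42.2% of tested genes with a promoter. This word can overlap the end of an E2F word that closes with CCAA. The capitals below mark the CHR word. A match of letters describes the sequence and shows no binding.
Ccnb2: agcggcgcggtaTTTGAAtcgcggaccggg
Plk1: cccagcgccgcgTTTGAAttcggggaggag
Cdc20: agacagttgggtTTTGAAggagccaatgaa
Cdk1: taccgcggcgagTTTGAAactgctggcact
Mki67: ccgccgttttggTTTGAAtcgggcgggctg
They lie at chr9:70421533-70421562, chr7:122159453-122159482, chr4:118437344-118437373, chr10:69352910-69352939 and chr7:135716460-135716489, in the order given.

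Libraries held 21762668 to 39517946 counts, and the deepest wild-type library held fewer than any other library. Member genes had 93 to 43538 raw counts in a library, so none was close to the limit of detection. Wild-type libraries stood apart from the rest. Mitochondrially encoded transcripts took 1.85% to 2.69% of their counts, against 0.446% to 0.690% in Lin28a-induced and 0.525% to 0.610% in no-Cre libraries. Their replicates differed more, with a median coefficient of variation over the 46 genes of 8.27%, against 4.88% in Lin28a-induced and 3.62% in no-Cre libraries. Replicate 2 was the lowest wild-type library for 28 of the 46 genes. Counts of Xist and Ddx3y marked 1 female library in each transgenic group, replicate 5 of Lin28a-induced and replicate 7 of no-Cre, and none in wild type. Levels below are CPM, scaled to library size with TMM factors, or RPKM, which also divides by exon length, where genes are compared with each other.

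Per kilobase, the genes ran from Cdk4, the G1 kinase, at 214 RPKM in Lin28a-induced, 213 in no-Cre and 224 in wild-type libraries, to Cdkn2c, the INK4 inhibitor p18, at 1.43, 1.74 and 1.73 RPKM. Cdc20, the activator of the anaphase-promoting complex, stood at 127, 121 and 107 RPKM, and Top2a, the topoisomerase that untangles chromosomes, at 121, 131 and 133 RPKM. Pcna, the sliding clamp of the replication fork, stood at 100.3, 109 and 99.1 RPKM. The 6 MCM genes lay close together, from 52.8 RPKM for Mcm2 to 86.2 RPKM for Mcm5 in Lin28a-induced libraries and from 46.2 to 81.7 RPKM for the same genes in wild type. Among the pocket proteins, Rbl1 (p107) was at 13.4, 17.7 and 15.3 RPKM, Rb1 at 5.30, 4.32 and 4.53 RPKM and Rbl2 (p130) at 3.65, 4.67 and 3.20 RPKM. Cdk6, the other kinase of cyclin D, stood far below Cdk4 at 4.73, 4.98 and 4.06 RPKM. Reads were counted with no stated strand setting, and exons overlap another gene, mostly on the opposite strand, over 11.2% to 23.4% of the exon length of 9 of the 46 genes (Ccnd1, Rbl2, Cdk4, Ccne2, Rb1, Cdc25c, Mcm7, Ccna2 and E2f8). Mcm7, Ccnb1, Cdc20, Pcna and Plk1 share 18.1% to 32.7% of their 32-base words with other annotated genes. Levels of these genes are less certain, whereas Rbl1 had no such overlap and shared 0.319% of its words.

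**Figure D1:**
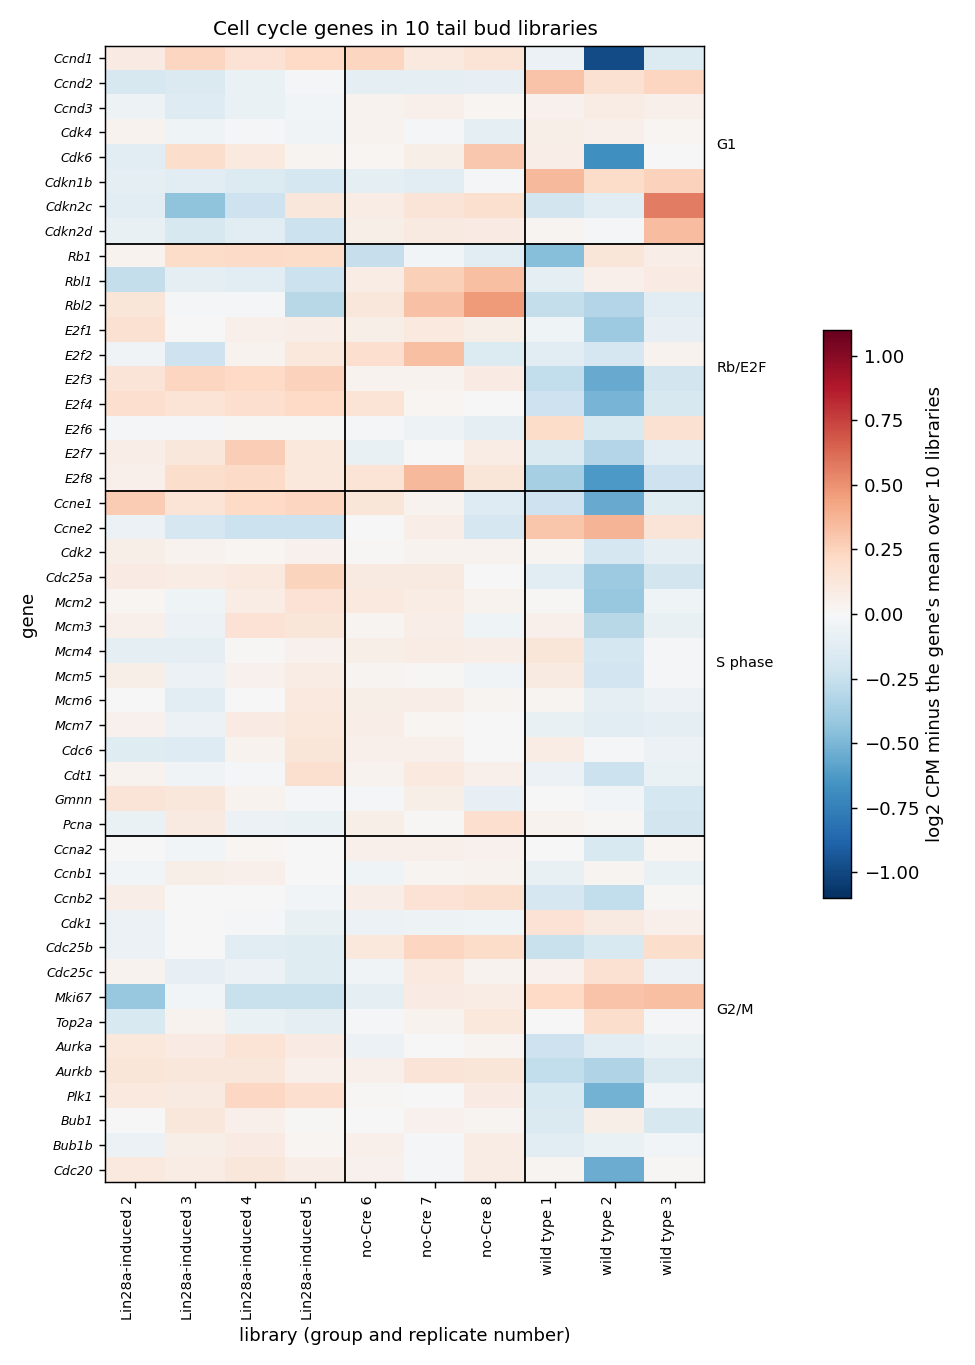
Each cell is the log2 CPM of 1 gene in 1 library minus that gene's mean over the 10 libraries, with genes grouped by role down the page and libraries by group across it. The Lin28a-induced and no-Cre columns differ little from each other, and wild-type replicate 2 holds the darkest blue cells, among them Ccnd1 at 130.5 CPM and Cdk6 at 39.8 CPM.

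Most of the 46 genes differed little between Lin28a-induced and no-Cre embryos. Rbl1, the pocket protein gene of p107, fell to 80.4 ± 4.64 CPM (SD, n = 4) in Lin28a-induced embryos, against 106 ± 9.09 CPM (n = 3) in no-Cre embryos. Of the other 45 genes none passed the test with all 10 libraries, and none of the 46 differed by as much as 1.5-fold. The number that passed depended on the fit. When only the 2 groups were fitted, 3 of the 46 passed as higher and 4 as lower. Of all genes 1791 of 15983 tested passed in that fit, against 476 of 16340. Without wild-type replicate 2, 2 of the 46 passed as higher and 2 as lower, and 1482 of 16705 tested genes passed. Outside the 46, Cdkn1a, the inhibitor p21 that acts on cyclin E and Cdk2, rose to 37.0 ± 3.98 CPM against 17.0 ± 2.15 CPM. In bulk tissue, fewer cells of a type and less RNA per cell cannot be told apart.

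Lin28a itself stood at 664, 605, 750 and 731 CPM in Lin28a-induced libraries and at 5.03, 4.53 and 2.64 CPM in no-Cre libraries, in keeping with the labels (log2 fold change 7.38 ± 0.21 SE, adjusted p = 2.95e-07). Of 16340 tested genes, 476 passed edgeR's quasi-likelihood test at a Benjamini-Hochberg adjusted p under 0.05, which is 2.91% of all genes, with 1.76% higher and 1.15% lower. Of the 46 cell cycle genes 0 were higher and 1 was lower (2.17%), a share near that of all genes. At an unadjusted p under 0.05 there were 11 of the 46 and 2658 of the 16340 tested genes. DESeq2 and limma-voom called 3 and 1 of the 46, all lower. Of all genes they called 940 of 13886 tested and 538 of 16340 tested. Values of the 2 groups did not overlap for 13 of the 46 (28.3%), against 23.4% of all tested genes. The median absolute log2 fold change was 0.07 over the 46 genes and 0.12 over all tested genes, and 40 of the 46 lay within 0.25 of zero on the log2 scale.

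Of the 8 G1 genes 0 passed, also with DESeq2 and limma-voom, and 2 had an unadjusted p under 0.05. Ccnd1 was at 276, 305, 289 and 302 CPM in Lin28a-induced libraries and at 305, 278 and 288 CPM in no-Cre libraries (log2 fold change 0.01 ± 0.19, adjusted p = 0.990). Ccnd2 was at 298, 301, 319.6 and 333 CPM in Lin28a-induced and at 313, 314 and 316 CPM in no-Cre libraries (-0.01 ± 0.05, adjusted p = 0.976). Cdk6 was at 58.4, 72.7, 68.6 and 65.0 CPM in Lin28a-induced and at 64.5, 66.4 and 77.9 CPM in no-Cre libraries (-0.07 ± 0.16, adjusted p = 0.894). The groups overlapped for all 3 genes, and the larger standard errors of Ccnd1 and Cdk6 allow larger differences than that of Ccnd2. Cdk4 was 0.01 ± 0.05 and Ccnd3, the third D-type cyclin, -0.11 ± 0.05 (adjusted p = 0.974 and 0.247). Of the inhibitors among the 46, Cdkn1b (p27) was -0.06 ± 0.05 (adjusted p = 0.612), Cdkn2c -0.28 ± 0.19 (0.534) and Cdkn2d, the INK4 inhibitor p19, -0.23 ± 0.09 (0.187). Cdkn2d was at 17.3 to 19.2 CPM in Lin28a-induced libraries and at 21.2 to 21.8 CPM in no-Cre libraries, which do not overlap, and it passed when only the 2 groups were fitted (0.0291).

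Among the pocket protein genes, the estimates for Rbl1 and Rbl2 were lower and that for Rb1 higher, and only Rbl1 passed. Rbl1 was at 75.6, 85.0, 83.7 and 77.2 CPM in Lin28a-induced libraries and at 96.3, 109 and 114 CPM in no-Cre libraries. All 4 Lin28a-induced values lay below all no-Cre values (log2 fold change -0.40 ± 0.07, adjusted p = 0.00763). The call was lost without no-Cre replicate 7 (adjusted p = 0.0614) or no-Cre replicate 8 (0.0626), and held in the 8 other fits without 1 library and in all 9 other settings. Rbl1 lies at chr2:157145893-157204534 on the minus strand of mm10.

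Rb1, the founding member of the family, was at 29.2, 32.8, 33.0 and 32.6 CPM in Lin28a-induced libraries and at 23.9, 27.8 and 26.1 CPM in no-Cre libraries. All Lin28a-induced values lay above the no-Cre values, but the difference of 0.30 ± 0.12 did not pass (adjusted p = 0.226). It passed when only the 2 groups were fitted (adjusted p = 0.0126). Rbl2 was at 31.2, 28.1, 28.2 and 23.0 CPM in Lin28a-induced and at 30.9, 35.6 and 39.2 CPM in no-Cre libraries, with 1 overlap (-0.35 ± 0.10, adjusted p = 0.0878). It passed with DESeq2 (adjusted p = 0.0320) and without wild-type replicate 2 (0.0441).

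Within a library the ratio of 2 genes does not depend on library scaling. The RPKM ratio of Rbl1 to Rb1 was 2.60, 2.60, 2.55 and 2.38 in Lin28a-induced libraries, 4.04, 3.91 and 4.38 in no-Cre libraries and 4.10, 3.02 and 3.24 in wild-type libraries. The Lin28a-induced ratios were the lowest and did not overlap with those of either other group. The ratio of Rbl1 to Rbl2 was 3.06 to 4.23 in Lin28a-induced and 3.67 to 3.92 in no-Cre libraries, which overlap. These ratios were chosen after the values were seen and are given without a test. The exon overlaps of Rb1 and Rbl2 with other genes, stated above, apply to them.

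**Figure D2:**
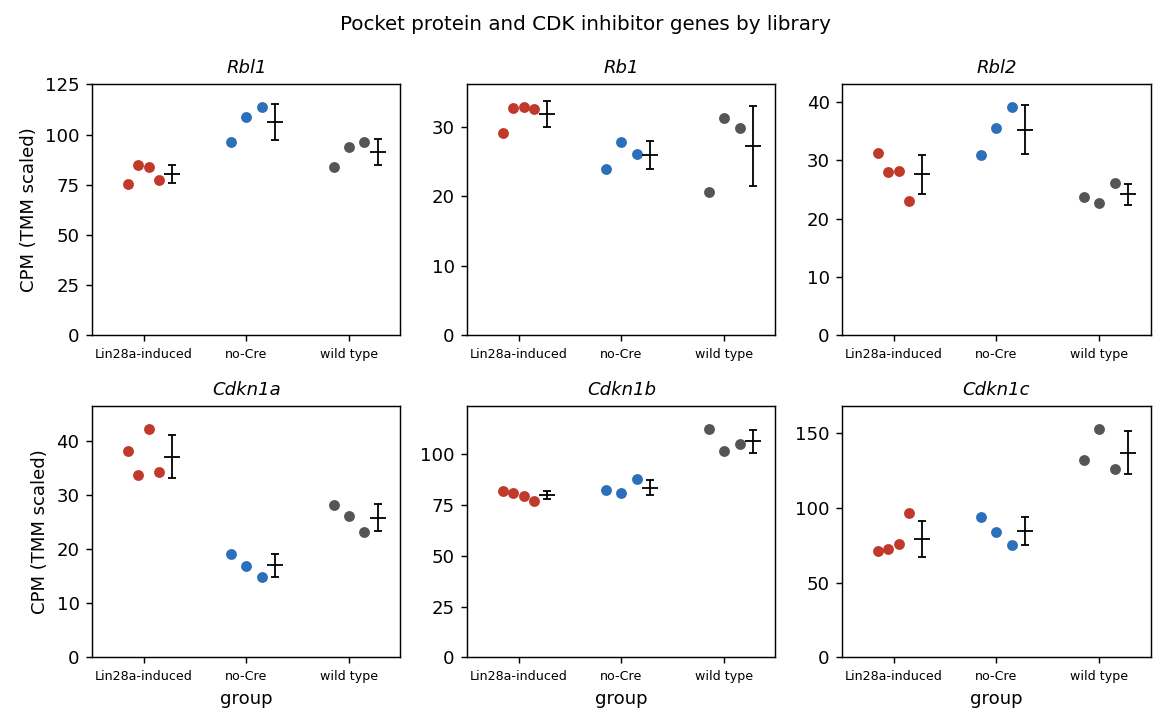
Each dot is the TMM-scaled CPM of a gene in 1 library, and the bar beside each group is its mean with 1 SD (n = 4, 3 and 3). By group means, Rbl1 is lowest and Cdkn1a highest in Lin28a-induced libraries, and Cdkn1b and Cdkn1c are highest in wild type.

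None of the 7 E2F genes passed. Of the 10 genes of the Rb and E2F families, 5 had an unadjusted p under 0.05, against 2658 of the 16340 tested genes. The groups did not overlap for 4 of the 10 (40%, against 23.4% of all tested genes). The activators E2f1, E2f2 and E2f3, which switch on S phase genes, differed by 0.00 ± 0.07, -0.16 ± 0.11 and 0.15 ± 0.07 on the log2 scale. E2f3 was at 160.0, 172, 169 and 173 CPM in Lin28a-induced libraries and at 149.7, 149.8 and 155 CPM in no-Cre libraries. These groups do not overlap, but the adjusted p was 0.303 with all 10 libraries, 0.0250 when only the 2 groups were fitted and 0.0347 without wild-type replicate 2. E2f4, which works with p107 and p130 to hold genes silent, was 0.12 ± 0.07, and the repressors E2f6, E2f7 and E2f8 were 0.06 ± 0.07, 0.15 ± 0.06 and -0.07 ± 0.08 (adjusted p from 0.281 to 0.783 for these 4).

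Of the 14 S phase genes 0 passed, also with DESeq2 and limma-voom, and 1 had an unadjusted p under 0.05; adjusted p ran from 0.261 for Ccne1 to 0.960 for Cdk2. Ccne1, one of the E-type cyclins, was at 79.8, 72.8, 76.6 and 77.5 CPM in Lin28a-induced and at 71.9, 67.4 and 59.7 CPM in no-Cre libraries (0.21 ± 0.09), with no overlap. Its paralog Ccne2 was at 68.9, 63.3, 61.0 and 61.1 CPM in Lin28a-induced and at 72.0, 75.9 and 63.5 CPM in no-Cre libraries (-0.15 ± 0.07, adjusted p = 0.329), with overlap. Ccne1 passed when only the 2 groups were fitted (adjusted p = 0.0367) and without wild-type replicate 2 (0.0386). Cdc25a, the phosphatase that activates Cdk2, was at 158, 158, 159.6 and 176 CPM in Lin28a-induced and at 159, 159 and 149 CPM in no-Cre libraries (0.06 ± 0.07, adjusted p = 0.713), and the groups overlapped.

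The helicase and licensing genes lay close to zero in the same comparison. The MCM genes ran from -0.11 ± 0.07 for Mcm4 to 0.06 ± 0.08 for Mcm3. The loading factors Cdc6 and Cdt1 were -0.06 ± 0.07 and -0.02 ± 0.06, geminin (Gmnn) 0.09 ± 0.06 and Pcna -0.12 ± 0.07. Standard errors of the 14 S phase genes were 0.05 to 0.09 on the log2 scale.

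Of the 14 genes of G2 phase and mitosis 0 passed, 3 had an unadjusted p under 0.05 and DESeq2 called 1, Mki67. Mki67, the proliferation marker Ki-67 that coats mitotic chromosomes, was at 516, 676, 582 and 580.3 CPM in Lin28a-induced and at 643, 733 and 729 CPM in no-Cre libraries. Replicate 3 overlapped with the no-Cre range (-0.25 ± 0.08, adjusted p = 0.106). Without that replicate the difference passed (-0.33, adjusted p = 0.0302), as it did with DESeq2 (0.0357). Cdc25b, a phosphatase that activates Cdk1, was at 40.3, 42.0, 38.6 and 38.4 CPM in Lin28a-induced and at 45.8, 49.6 and 48.3 CPM in no-Cre libraries. These groups do not overlap (-0.27 ± 0.09, adjusted p = 0.123), and the difference passed when only the 2 groups were fitted (0.00444) and without wild-type replicate 3 (0.0214).

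Cyclins A2, B1 and B2 and Cdk1 differed by -0.06 ± 0.05, 0.02 ± 0.05, -0.13 ± 0.06 and 0.01 ± 0.05 on the log2 scale. Ccnb2 passed when only the 2 groups were fitted (adjusted p = 0.0454). Top2a was -0.12 ± 0.06, the phosphatase gene Cdc25c -0.10 ± 0.07, the kinases Aurka, Aurkb and Plk1 0.12 ± 0.05, 0.00 ± 0.05 and 0.12 ± 0.09, and the checkpoint genes Bub1, Bub1b and Cdc20 0.02 ± 0.06, -0.01 ± 0.05 and 0.06 ± 0.11.

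**Figure D3:**
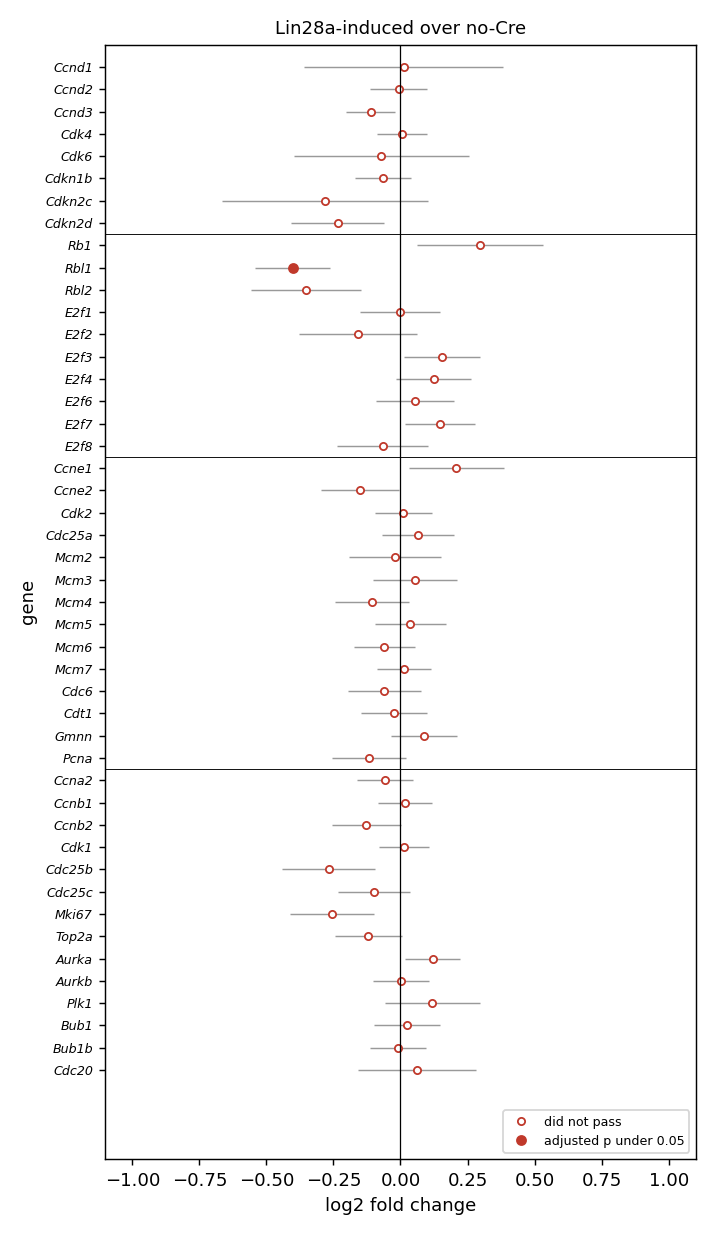
Points give the log2 fold change of each gene in Lin28a-induced over no-Cre libraries, bars span 2 SE to either side, and filled points passed at an adjusted p under 0.05. Rbl1 at -0.40 is the filled point, and most others lie within 0.25 of zero.

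Other genes of the pathway gave 6 calls in this comparison, where 2.91% of all tested genes passed. Of 4 further CDK inhibitors 1 was higher and 0 lower (25%), and of 16 further E2F and DREAM genes 2 were higher and 1 lower (18.8%). Of 43 further replication genes 1 was higher and 1 lower (4.65%), and of 34 further mitosis genes and 11 checkpoint genes, lists that share Wee1, 0 passed, with 5 and 3 at an unadjusted p under 0.05. DESeq2 called 1 gene in each of those 2 lists, the securin Pttg1 (higher) and the kinase Atr (lower), whose adjusted p with edgeR was 0.0653 and 0.0598, and limma-voom called 0. Cdkn1a was at 38.0, 33.6, 42.2 and 34.3 CPM in Lin28a-induced and at 19.1, 16.9 and 14.8 CPM in no-Cre libraries, with no overlap (1.12 ± 0.11, adjusted p = 9.23e-05), and passed in all 19 alternative fits. E2f5, the other E2F partner of p107 and p130, was at 85.0, 84.0, 85.9 and 85.6 CPM in Lin28a-induced and at 66.3, 70.1 and 64.5 CPM in no-Cre libraries.

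The E2f5 groups do not overlap (0.35 ± 0.06, adjusted p = 0.00527), and the call was lost without no-Cre replicate 8 (0.0528). Cdc34, a ubiquitin-conjugating enzyme of the SCF ligases, was 0.26 ± 0.06 (adjusted p = 0.0390), and Fbxw7, the SCF subunit that marks cyclin E for degradation, -0.30 ± 0.06 (0.0250). Orc2, a subunit of the origin recognition complex, was 0.24 ± 0.06 (0.0344), and Rpa3, a subunit of the single-strand binding complex, -0.29 ± 0.06 (0.0209). Calls of these 4 genes were less stable, exons of Orc2 overlap another gene on the opposite strand over 29.8% of their length, and Cdc34 shares 20.5% of its words with other genes. Fbxw7 passed in 4, Rpa3 in 5, Cdc34 in 3 and Orc2 in 3 of 10 fits without 1 library, each losing its call when any 1 no-Cre replicate was left out, and all but Fbxw7 and Rpa3 when any 1 Lin28a-induced replicate was (Fbxw7 without replicate 2, 4 or 5, Rpa3 without replicate 4 or 5), with adjusted p up to 0.136, 0.0994, 0.195 and 0.186. With sex as a covariate Cdc34 (0.0642) and Orc2 (0.0536) also lost their calls. Of the tested cell type markers, 0 of 10 endothelial, 0 of 9 macrophage, 0 of 12 tail bud, 0 of 12 red blood cell, 0 of 6 neuron and 0 of 5 muscle markers passed, and 1 of 8 cartilage markers was lower. DESeq2 called 1 endothelial and 1 muscle marker higher and 1 cartilage marker lower. At an unadjusted p under 0.05 there were 1 endothelial, 2 tail bud, 1 muscle and 2 cartilage markers, and 0 red blood cell, macrophage or neuron markers.

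The markers were not level between these groups, although few passed. All 12 red blood cell markers were lower in Lin28a-induced libraries (median log2 fold change -0.56), with a summed level of 3758 to 6157 CPM against 5665 to 9575 CPM in no-Cre libraries. Of the 12 tail bud markers 10 were higher (median 0.22), and 6 did not overlap (50%, against 23.4% of all tested genes), with sums of 1079 to 1484 CPM in Lin28a-induced and 1149 to 1159 CPM in no-Cre libraries. Of 9 macrophage markers 8 were higher (median 0.23), and of 8 cartilage markers 7 were lower (median -0.15). The part of these cell types in the Rbl1, Cdkn1a and E2f5 differences was not tested.

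Wild-type embryos differed from both transgenic groups much more widely. Against wild type, the E2F genes E2f1, E2f3, E2f4, E2f7 and E2f8 were higher in Lin28a-induced embryos by 0.25 to 0.55 on the log2 scale, together with Ccne1, Cdc25a and the kinases Aurka, Aurkb and Plk1. Ccnd2, Cdkn1b, Ccne2 and Mki67 were lower by 0.34 to 0.52. No-Cre embryos, which lack induced Lin28a, differed from wild type in the same direction for all of these genes. All but Aurka (adjusted p = 0.0670) passed there too with all libraries, although some of those calls were lost in other fits. The values of both groups are given side by side below. Lin28a itself had a log2 fold change over wild type of 6.97 in Lin28a-induced (adjusted p = 7.81e-09) and -0.41 in no-Cre embryos (0.161). Both comparisons use the same wild-type libraries, so neither is independent of the other.

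Of all tested genes, 49.3% passed in Lin28a-induced over wild type (24.3% higher, 25% lower), and of the 46 cell cycle genes 21 passed (45.7%), with 13 higher and 8 lower. In no-Cre over wild type 42.5% of all genes passed (21% higher, 21.4% lower), and 19 of the 46 (41.3%), with 14 higher and 5 lower. The shares of the 46 were thus near those of all genes in both comparisons. Groups did not overlap for 21 of the 46 in Lin28a-induced and 23 of the 46 in no-Cre over wild type, against 49.3% and 52% of all genes. Without wild-type replicate 2, 15 were higher and 8 lower in Lin28a-induced, and 11 higher and 5 lower in no-Cre embryos. Without wild-type replicate 1 the Lin28a-induced comparison gave 18 higher and 7 lower, and without no-Cre replicate 7 the no-Cre comparison gave 7 higher and 4 lower.

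Some calls against wild type were also lost in other settings. When only the 2 groups were fitted, Ccnd1, Mcm7 and Cdt1 lost theirs in Lin28a-induced embryos, and Rbl1, E2f1, E2f7, Ccne1, Cdk1, Cdc25b and Plk1 in no-Cre embryos. With sex as a covariate, Ccnd1, Rbl1, Mcm7 and Cdt1 lost theirs in Lin28a-induced embryos, and Rbl1, E2f7, Cdt1, Cdk1, Cdc25b and Plk1 in no-Cre embryos. With no filter on low counts, Ccnd1, Ccnd3, Rbl1 and Cdk1 lost theirs in Lin28a-induced embryos and Cdk1 in no-Cre embryos. With a filter of 1 CPM in 3 libraries, Cdt1 in Lin28a-induced and Cdc25b in no-Cre embryos lost theirs, Cdc25b also with a spread that is not robust. Other tools also gained calls with all libraries. DESeq2 called Ccnd1, Mcm7 and Aurka higher in no-Cre embryos and Bub1 higher in Lin28a-induced embryos. Limma-voom called Ccnd1 higher in no-Cre embryos.

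Cell type markers moved along with wild type. Of all tested genes, 49.3% passed in Lin28a-induced and 42.5% in no-Cre embryos over wild type. All 10 endothelial markers were higher in both transgenic groups, with a summed level of 319 to 432 CPM in Lin28a-induced, 331 to 368 CPM in no-Cre and 83.2 to 163 CPM in wild-type libraries. Of 12 tail bud markers 6 were higher in each, with sums of 1079 to 1484, 1149 to 1159 and 487 to 1030.4 CPM; wild-type replicate 2 was the lowest. Of 9 tested macrophage markers 7 were higher in Lin28a-induced and 5 higher and 1 lower in no-Cre embryos, with sums of 103 to 129, 91.4 to 110.4 and 38.5 to 80.6 CPM. Of 8 tested cartilage markers 3 and 1 were lower, with sums of 348 to 407, 389 to 411 and 489.6 to 620.4 CPM. Of 12 red blood cell markers 6 were higher and 1 lower in each, and of 6 tested neuron markers 1 was higher and 1 lower in each. The neuron sums were 25.6 to 26.9 CPM in Lin28a-induced, 22.9 to 28.4 CPM in no-Cre and 39.2 to 52.6 CPM in wild-type libraries. By sign alone, 3 neuron markers were higher and 3 lower in Lin28a-induced, and 4 higher and 2 lower in no-Cre embryos. Of 5 tested muscle markers 1 was higher and 1 lower in Lin28a-induced and 0 higher and 1 lower in no-Cre embryos. No marker found in the table was at 0 in every library. The part of these cell types, of the transgenes and of doxycycline in the cell cycle differences cannot be told apart, since wild type differs in all of them. Wild type also held no female library, and calls with sex as a covariate are given above. Log2 fold changes over all tested genes ran from -11.4 to 9.02 in both comparisons with wild type. A part of genetic background in the cell cycle differences was not tested.

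In G1, Ccnd2, a D-type cyclin, was at 298, 301, 319.6 and 333 CPM in Lin28a-induced, 313, 314 and 316 CPM in no-Cre and 418, 377 and 397 CPM in wild-type libraries. Wild type lay above all 7 other libraries (-0.34 ± 0.05, adjusted p = 0.000148 for Lin28a-induced, and -0.34 ± 0.06, adjusted p = 0.000438 for no-Cre). Cdkn1b was at 81.8, 80.9, 79.4 and 76.8 CPM in Lin28a-induced, 82.0, 80.8 and 87.4 CPM in no-Cre and 112, 101 and 105 CPM in wild-type libraries. Again the wild-type values were the 3 highest (-0.41 ± 0.05, adjusted p = 2.69e-05, and -0.35 ± 0.06, adjusted p = 0.000285).

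Ccnd1 was at 247, 130.5 and 232 CPM in wild type, below all 7 other libraries. It was 0.52 ± 0.19 in Lin28a-induced (adjusted p = 0.0452) and 0.51 ± 0.20 in no-Cre embryos (0.0672) over wild type. Its call in Lin28a-induced embryos was lost without any 1 of the 7 transgenic libraries (up to 0.0906). In no-Cre embryos Ccnd1 passed without wild-type replicate 2 (0.28, adjusted p = 0.00130) and without wild-type replicate 1. With all libraries it passed there with DESeq2 and limma-voom. The RPKM ratio of Ccnd1 to Ccnd2 was 1.81 to 2.02 in Lin28a-induced, 1.77 to 1.95 in no-Cre and 0.691 to 1.18 in wild-type libraries. The exon overlap of Ccnd1 with another gene, stated above, applies to this ratio. Cdk6 was at 66.7, 39.8 and 63.9 CPM in wild type and did not pass (0.22 ± 0.17 and 0.29 ± 0.18), nor did Cdk4 or Cdkn2c.

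Ccnd3 was 0.13 lower on the log2 scale in Lin28a-induced than in wild-type embryos (-0.13 ± 0.05, adjusted p = 0.0298) and Cdkn2d was -0.28 ± 0.09 (0.0187). The Ccnd3 call was lost without Lin28a-induced replicate 3 or 4 (up to 0.0731), and the Cdkn2d call without Lin28a-induced replicate 5 or wild-type replicate 3 (up to 0.109). In no-Cre embryos these genes stood at -0.02 ± 0.05 and -0.04 ± 0.09 and did not pass. Whether the groups differ in this was tested only by the direct comparison above, which neither gene passed.

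**Figure D4:**
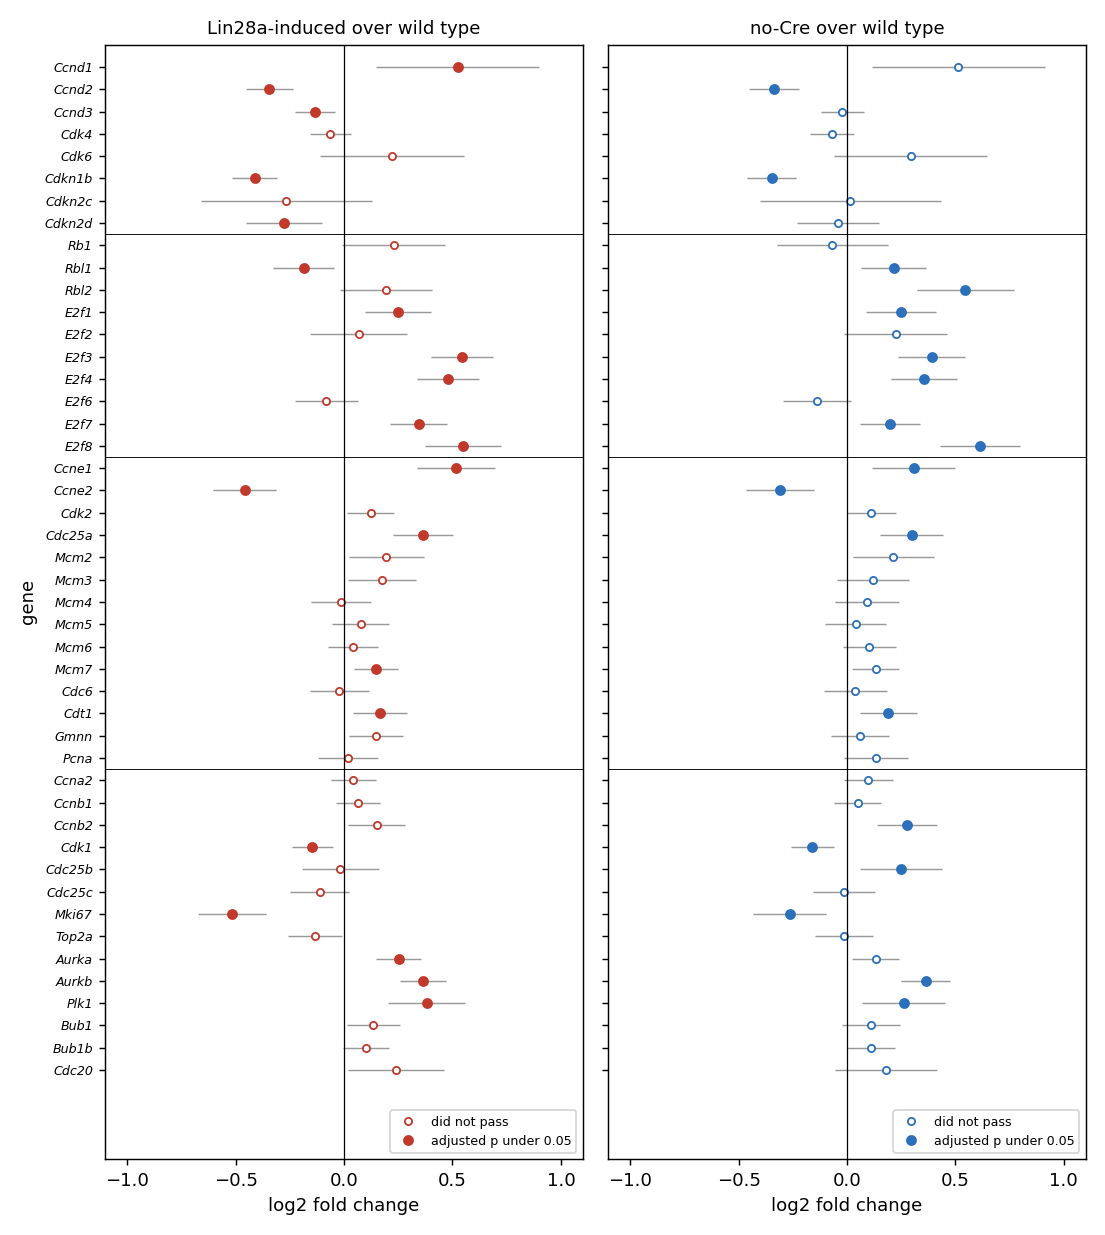
The log2 fold change over wild type is plotted for Lin28a-induced libraries on the left and no-Cre libraries on the right, with bars of 2 SE to either side and filled points where the adjusted p was under 0.05. E2f8 has the highest value in both panels, at 0.55 and 0.61, and the panels share the same wild-type libraries.

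Among pocket proteins and E2F genes, 5 were higher and 1 lower of 10 in Lin28a-induced embryos, and 7 higher and 0 lower in no-Cre embryos. These shares were 60% and 70%, against 49.3% and 42.5% of all tested genes. Their summed level was 696 to 731 CPM in Lin28a-induced, 695 to 725 CPM in no-Cre and 543 to 645 CPM in wild-type libraries. Rbl1 was at 84.0, 94.0 and 96.4 CPM in wild type, between the other groups. It was -0.19 ± 0.07 in Lin28a-induced (adjusted p = 0.0401) and 0.22 ± 0.07 in no-Cre embryos (0.0322) over wild type, and wild type overlapped with both groups. The first call was lost without Lin28a-induced replicate 2 or 5, no-Cre replicate 7 or wild-type replicate 2 or 3 (up to 0.132). It was also lost with DESeq2, limma-voom, no filter and sex as a covariate (up to 0.0703), and held in 5 of 9 such settings. The second was lost without no-Cre replicate 7 or 8 or wild-type replicate 1 (up to 0.128), when only the 2 groups were fitted and with sex as a covariate (up to 0.0664). The place of wild type between the other groups is therefore not firm. Rbl2 was at 23.7, 22.7 and 26.1 CPM in wild type, and 0.54 ± 0.11 higher in no-Cre embryos (adjusted p = 0.00171) against 0.19 ± 0.11 in Lin28a-induced embryos (0.147). In Lin28a-induced embryos Rbl2 passed without replicate 5 (0.0355). Rb1 did not pass in either (0.23 ± 0.12 and -0.07 ± 0.13), except in Lin28a-induced embryos without wild-type replicate 2 (0.0375) and in no-Cre embryos without wild-type replicate 1 (0.0499).

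E2f8, a repressor without a DP partner, was at 56.4, 62.0, 62.8 and 58.7 CPM in Lin28a-induced, 60.2, 69.1 and 59.2 CPM in no-Cre and 42.0, 35.0 and 46.3 CPM in wild-type libraries. All wild-type values were lower than all others (0.55 ± 0.09, adjusted p = 0.000199, and 0.61 ± 0.09, adjusted p = 0.000184). Its no-Cre fold was the 1 value among the 46 genes past 1.5-fold in these comparisons. E2f3 was at 121, 99.3 and 127 CPM in wild type (0.54 ± 0.07, adjusted p = 3.98e-05, and 0.39 ± 0.08, adjusted p = 0.00122). E2f4 was at 65.2, 53.4 and 67.5 CPM in wild type (0.48 ± 0.07 and 0.36 ± 0.08), and every wild-type value of both genes lay below the other 7 libraries.

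E2f1 was 0.25 ± 0.08 in each transgenic group and E2f7 0.34 ± 0.07 in Lin28a-induced and 0.20 ± 0.07 in no-Cre embryos. Both no-Cre calls were lost without no-Cre replicate 7 or 8 or wild-type replicate 2, and that of E2f1 also without no-Cre replicate 6, with adjusted p up to 0.0730 for E2f1 and 0.131 for E2f7. Without wild-type replicate 2 they stood at 0.15 and 0.14. E2f2 and E2f6 did not pass with all libraries, and E2f2 passed in no-Cre embryos without replicate 8 (0.0256). Without wild-type replicate 2, E2f6 was lower in Lin28a-induced (-0.19, adjusted p = 0.00160) and in no-Cre embryos (-0.25, adjusted p = 0.000478).

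In S phase, 4 genes were higher and 1 lower of 14 in Lin28a-induced embryos, and 3 higher and 1 lower in no-Cre embryos. These shares, 35.7% and 28.6%, lay below the 49.3% and 42.5% of all tested genes. The E-type cyclins differed in opposite directions. Ccne1 was at 56.2, 44.7 and 60.0 CPM in wild type, overlapping with no-Cre libraries only (0.52 ± 0.09, adjusted p = 0.000433 in Lin28a-induced, and 0.31 ± 0.10, adjusted p = 0.0201 in no-Cre embryos). Ccne2 was at 89.2, 93.5 and 79.4 CPM in wild type, above all other libraries (-0.46 ± 0.07, adjusted p = 0.000171, and -0.31 ± 0.08, adjusted p = 0.00618). The no-Cre call of Ccne1 was lost without no-Cre replicate 6 or 7 (up to 0.0907).

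The RPKM ratio of Ccne1 to Ccne2 was 1.52, 1.51, 1.65 and 1.66 in Lin28a-induced libraries, 1.31, 1.17 and 1.23 in no-Cre libraries and 0.827, 0.629 and 0.992 in wild-type libraries. The 3 groups do not overlap, and in RPKM wild type was the group in which Ccne2 exceeded Ccne1. Which paralog is higher depends on the exon lengths used. In CPM, Ccne2 also exceeded Ccne1 in every no-Cre library (means 70.5 and 66.3 CPM). The RPKM ratio was chosen after its values were seen and has no test, and the opposite-strand overlap of Ccne2 stated above applies to it.

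**Figure D5:**
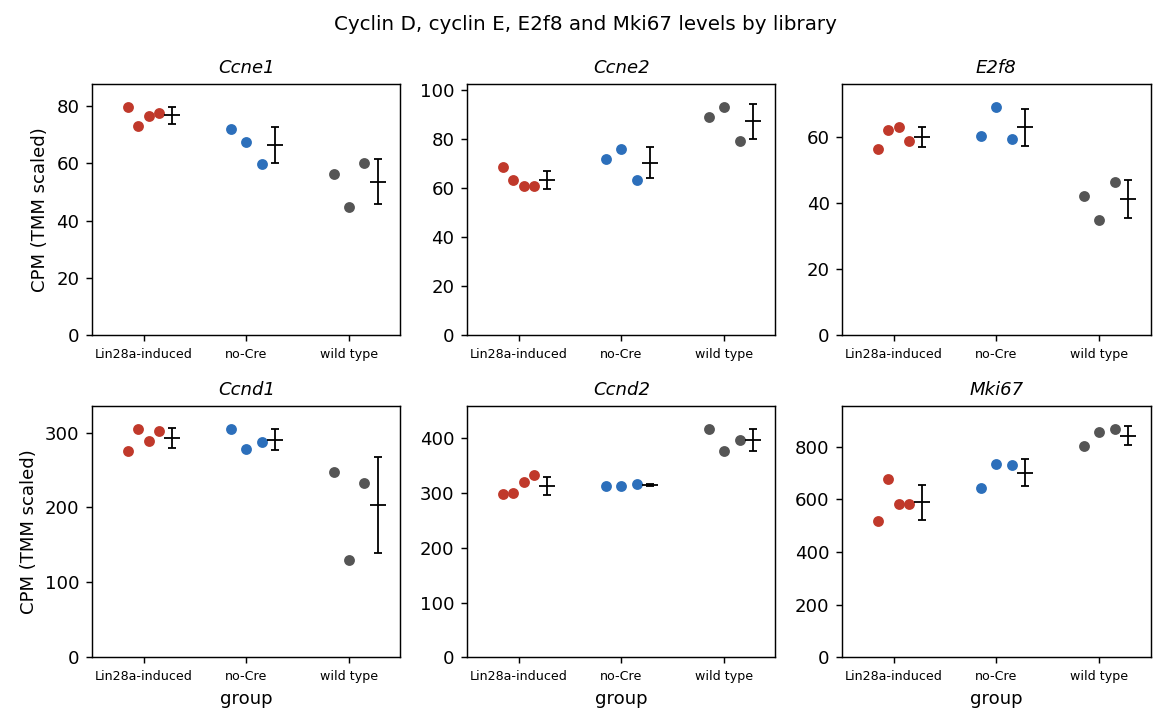
Dots are TMM-scaled CPM per library and the bar beside each group its mean with 1 SD (n = 4, 3 and 3). By group means, Ccne1, E2f8 and Ccnd1 are lowest and Ccne2, Ccnd2 and Mki67 highest in wild type, where Ccnd1 replicate 2 stands at 130.5 CPM.

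Cdc25a was at 137, 113 and 129 CPM in wild type, below all other libraries (0.36 ± 0.07, adjusted p = 0.000647, and 0.30 ± 0.07, adjusted p = 0.00489). Cdt1 was 0.17 ± 0.06 (adjusted p = 0.0393) in Lin28a-induced and 0.19 ± 0.07 (0.0330) in no-Cre embryos. Mcm7 was 0.15 ± 0.05 (0.0280) in Lin28a-induced embryos and 0.13 ± 0.05 (0.0618) in no-Cre embryos. The Cdt1 calls were lost without wild-type replicate 2 (0.132 and 0.0855), the first also without Lin28a-induced replicate 2 or 5 or no-Cre replicate 6 or 7 (up to 0.134), and the second without any no-Cre replicate (up to 0.113). The Mcm7 call was lost without Lin28a-induced replicate 4 or 5 or wild-type replicate 3 (up to 0.0827). The other 5 MCM genes, Cdc6, Gmnn, Pcna and Cdk2 did not pass in either comparison, with log2 fold changes from -0.02 to 0.19 in Lin28a-induced and from 0.04 to 0.21 in no-Cre embryos. Mcm2 was at 357, 264 and 342.5 CPM in wild type, and replicate 2 was again the low library. Without wild-type replicate 1, Mcm2 and Cdk2 passed in both comparisons (lowest adjusted p 0.0251 and 0.0122 in Lin28a-induced, 0.0250 and 0.0222 in no-Cre embryos). Mcm3 passed in Lin28a-induced embryos without replicate 3 or wild-type replicate 1 (as low as 0.0171), Gmnn without replicate 5 or wild-type replicate 1 or 2 (0.0455), and Mcm7 in no-Cre embryos without Lin28a-induced replicate 3 (0.0498).

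In G2 and mitosis, 3 genes were higher and 2 lower of 14 in Lin28a-induced embryos, and 4 higher and 2 lower in no-Cre embryos. The shares were 35.7% and 42.9%, against 49.3% and 42.5% of all tested genes. Mki67 was at 801, 856 and 868 CPM in wild type, above all other libraries (-0.52 ± 0.08, adjusted p = 0.000133, and -0.26 ± 0.08, adjusted p = 0.0225). The no-Cre call was lost without no-Cre replicate 6 or wild-type replicate 2 or 3 (up to 0.113). Aurkb, the kinase that corrects chromosome attachment, was at 139, 138, 138 and 132 CPM in Lin28a-induced, 131, 139.8 and 139 CPM in no-Cre and 105, 101 and 113 CPM in wild-type libraries. Wild type was lowest with no overlap (0.36 ± 0.05, adjusted p = 9.12e-05, and 0.36 ± 0.06, adjusted p = 0.000229).

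Plk1, the Polo-like kinase, was at 133, 104 and 146 CPM in wild type (0.38 ± 0.09, adjusted p = 0.00352, and 0.26 ± 0.10, adjusted p = 0.0414). Its no-Cre call held in 1 of 10 fits without 1 library, the fit without wild-type replicate 3, with adjusted p up to 0.121 in the others. Aurka, the centrosome kinase, was 0.25 ± 0.05 in Lin28a-induced (adjusted p = 0.00120) and 0.13 ± 0.05 in no-Cre embryos (0.0670), where it passed without wild-type replicate 3 (0.0259). Cdk1 was -0.15 ± 0.05 (0.0195) and -0.16 ± 0.05 (0.0210). Its first call was lost without Lin28a-induced replicate 5 or wild-type replicate 1 (up to 0.0837), and its second without any no-Cre replicate or wild-type replicate 1 (up to 0.0832).

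Ccnb2 and Cdc25b were higher in no-Cre embryos by 0.28 ± 0.07 (adjusted p = 0.00576) and 0.25 ± 0.09 (0.0467), and stood at 0.15 ± 0.06 (0.0700) and -0.02 ± 0.09 (0.882) in Lin28a-induced embryos. The Cdc25b call held in 1 of 10 fits, that without wild-type replicate 3 (up to 0.173 in the others). Ccna2, Ccnb1, Cdc25c, Top2a, Bub1, Bub1b and Cdc20 did not pass in either comparison with all libraries. In Lin28a-induced embryos Ccnb2 passed without wild-type replicate 3 (0.00393), Top2a without replicate 3 (0.0364) and Cdc20 without wild-type replicate 1 or 3 (as low as 0.0359). Without wild-type replicate 2, Bub1, a kinase of the spindle checkpoint, passed in both (0.21, adjusted p = 0.00183 in Lin28a-induced, and 0.19, adjusted p = 0.00659 in no-Cre embryos).

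Outside the 46, the 4 further CDK inhibitors gave 1 higher and 2 lower in Lin28a-induced embryos and 0 higher and 3 lower in no-Cre embryos. That is 75% in each, against 49.3% and 42.5% of all tested genes. Cdkn1c (p57) was at 71.1, 72.7, 76.0 and 96.6 CPM in Lin28a-induced, 94.0, 84.2 and 75.3 CPM in no-Cre and 132, 153 and 126 CPM in wild-type libraries, with the 3 wild-type values the highest and 30.7% of its exon length overlapping an opposite-strand gene (-0.79 ± 0.11, adjusted p = 0.000160, and -0.70 ± 0.12, adjusted p = 0.000952). Cdkn2b, the INK4 inhibitor p15, was at 1.19 to 1.78, 1.28 to 2.19 and 3.38 to 5.28 CPM (-1.68 ± 0.23, adjusted p = 6.25e-05, and -1.35 ± 0.25, adjusted p = 0.000810). Cdkn1a was at 28.1, 26.2 and 23.1 CPM in wild type, between the other groups with no overlap. It was 0.52 ± 0.10 in Lin28a-induced (adjusted p = 0.00105) and -0.60 ± 0.11 in no-Cre embryos (0.000901), so the order was Lin28a-induced above wild type above no-Cre.

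Of 16 further E2F and DREAM genes 6 were higher and 3 lower in Lin28a-induced embryos, and 4 higher and 1 lower in no-Cre embryos. The shares were 56.25% and 31.25%, against 49.3% and 42.5% of all tested genes. E2f5 was 0.58 ± 0.06 and 0.24 ± 0.06, Mybl2, the B-Myb activator of mitotic genes, 0.50 ± 0.07 and 0.36 ± 0.07, Cdc34 0.39 ± 0.06 and 0.13 ± 0.06 (not passing in no-Cre), and Tfdp2, an E2F dimer partner, 0.27 ± 0.06 and 0.31 ± 0.07. Of 43 further replication genes 12 were higher and 12 lower in Lin28a-induced embryos (55.8%), and 10 higher and 10 lower in no-Cre embryos (46.5%). The polymerase delta genes Pold1 and Pold3 were 0.59 ± 0.05 and 0.50 ± 0.05 in Lin28a-induced and 0.49 ± 0.06 and 0.39 ± 0.06 in no-Cre embryos. Rrm2, the ribonucleotide reductase subunit, was 0.81 ± 0.10 and 0.76 ± 0.10, Rpa3 -0.72 ± 0.06 and -0.43 ± 0.06, and thymidylate synthase (Tyms) -0.30 ± 0.05 and -0.38 ± 0.05.

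Of 34 further mitosis genes 18 were higher and 5 lower in Lin28a-induced embryos, and 16 higher and 2 lower in no-Cre embryos. The shares were 67.6% and 52.9%, against 49.3% and 42.5% of all tested genes. Pttg1, the securin that holds back separase until anaphase, was at 24.0, 20.8, 22.3 and 20.3 CPM in Lin28a-induced, 19.7, 16.9 and 16.1 CPM in no-Cre and 63.2, 59.1 and 62.0 CPM in wild-type libraries. It was thus far above the other 7 libraries in wild type (-1.49 ± 0.08, adjusted p = 9.75e-09, and -1.80 ± 0.09, adjusted p = 4.93e-09). Foxm1, the activator of G2 and mitosis genes, was 0.56 ± 0.06 and 0.43 ± 0.07, and the centrosome kinase Nek2 0.52 ± 0.06 and 0.48 ± 0.06. Of 11 checkpoint genes 2 were higher and 4 lower in Lin28a-induced embryos (54.5%), and 1 higher and 1 lower in no-Cre embryos (18.2%). Wee1, which inhibits Cdk1, was 0.39 ± 0.07 and 0.33 ± 0.07, and its relative Pkmyt1 0.33 ± 0.08 and 0.20 ± 0.09 (not passing in no-Cre). Wee1 is counted in both the mitosis and the checkpoint list. The damage kinases Atr and Chek1 were -0.45 ± 0.08 and -0.21 ± 0.07 in Lin28a-induced embryos. In no-Cre embryos Atr was -0.13 ± 0.09 and did not pass, and Chek1 was -0.24 ± 0.07, a call lost without no-Cre replicate 6 (adjusted p = 0.0710).

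let-7 seed matches were searched in the longest annotated 3′ UTR of each gene (GENCODE M21), because Lin28a acts on let-7. Bases 2 to 8 of let-7 pair with CTACCTC, searched on the transcript strand. This match stood in 5 of 46 genes (10.9%) and in 12.1% of 13620 tested genes with such a UTR. The 8-base match, with an A after it, stood in 2 of 46 (4.35%) and in 4.33%. The 5 genes were Cdk4, E2f2 with 2 matches, E2f6, E2f7 and Cdc25a. No match was found in the annotated UTRs of Cdk6, Ccnd1 or Ccnd2, which says only that these letters are not in those windows. The mature let-7a (RefSeq, GRCm38.p6) is given with its seed in capitals, followed by 30-base windows on the gene's strand with the match in capitals.
let-7a-5p: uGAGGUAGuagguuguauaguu
Cdk4: cctagggcccgaggcCTACCTCccctcatc
E2f2: gcgtcctgcatctgtCTACCTCctcacaga
E2f7: cactgaggggatgtgCTACCTCaaaccatg
Cdc25a: ttatcatcctaggagCTACCTCtactttta
The windows lie at chr10:127067658-127067687, chr4:136193039-136193068, chr10:110786985-110787014 and chr9:109892732-109892761 on mm10, in the order given.

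With Lin28a induced, none of the 5 genes with a match passed against no-Cre embryos. Cdk4 was at 723, 683, 695 and 683 CPM in Lin28a-induced and at 724, 698 and 656 CPM in no-Cre libraries. E2f7 was at 76.4, 79.1, 87.9 and 78.9 CPM in Lin28a-induced and at 68.7, 73.0 and 76.8 CPM in no-Cre libraries (0.15 ± 0.06, adjusted p = 0.281). The 2 groups overlapped for both genes. E2f2 was at 27.1, 23.8, 28.6 and 30.1 CPM in Lin28a-induced and at 31.6, 34.9 and 25.0 CPM in no-Cre libraries (-0.16 ± 0.11, adjusted p = 0.541), again with overlap. E2f6 was at 92.0 to 94.4 CPM in Lin28a-induced and at 87.3 to 91.9 CPM in no-Cre libraries, which do not overlap (0.06 ± 0.07, adjusted p = 0.783). Messenger RNA levels do not report on translation, which was not measured.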

How the data were processed

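RNA was measured in 10 tail bud libraries as gene-level read counts. Per the labels' protocols, total RNA was made into libraries with a directional kit, and a NextSeq 500 gave single reads of 75 bases. Per the submitters' processing notes, the authors used mm10, STAR 2.3.1z4, featureCounts and DESeq2; for the annotation, the strand setting and multimapped reads, the settings were not given in the sources used here. All deposited values are raw counts per symbol, with no normalization, and 0 columns were left out.

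From these counts, low counts were removed by filterByExpr, libraries scaled by TMM, and groups tested by the quasi-likelihood F test of edgeR 4.0.16 (robust, 3 group coefficients, all 10 libraries). P-values were adjusted after Benjamini and Hochberg across the 16340 genes kept, with a threshold of 0.05, and every adjusted p is from edgeR unless DESeq2 1.42.0 is named. Standard errors of log2 fold changes were derived from F (size of the change over root F). RPKM used GENCODE M21 exon lengths. The work ran in R 4.3.3 (limma 3.58.1) and in Python 3.11.15, with tables in pandas 2.3.3 and numpy 2.4.6 and plots in matplotlib 3.10.9, and the fit was tested on simulated data.

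The 46 genes, the pathway and marker lists and the alternatives were chosen with earlier results of these data known. All 46 genes are named. In the other pathway lists, up to 3 genes with the smallest p among those called in a comparison are named, and Lin28a and Cdkn1a in each; their values in the other comparison are printed beside them. Ratios of paralogs were picked with their values in view.

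Replicates were compared by a chi-square per gene. It was 7.11 to 14.3 for pairs without wild-type replicate 2 and 26.3 or 27.1 for pairs with it, so no libraries agreed within sampling noise. Alternatives were limma-voom, DESeq2, edgeR scaled by DESeq2's size factors, no filter, 1 CPM in 3 libraries, only the 2 groups compared, sex as a covariate, globin and mitochondrial genes left out, a spread that is not robust, each library left out in turn, and a replicate block.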

Additional observations from a re-analysis of the deposited data

Results flagged for a closer look

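In the Lin28a-induced group, the one with 4 libraries, 48 genes were examined for a library far from the other 3, and chance alone gives such a gap in about 1 of 20 groups. Rb1 in replicate 2 (29.2 CPM) lay below the others (32.6 to 33.0 CPM). Cdc25a in replicate 5 (176 CPM) lay above the others (158 to 159.6 CPM). Pcna in replicate 3 (263 CPM) lay above the others (233 to 235 CPM). Aurkb in replicate 5 (132 CPM) lay below the others (138 to 139 CPM).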

How the results depend on the processing

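No difference that passed changed direction in any alternative. Differences near zero did change sign, among them Ccnd1 in Lin28a-induced over no-Cre (-0.02 to 0.05 without 1 library) and Cdkn2c in Lin28a-induced over wild type (-0.41 to 0.01). In Lin28a-induced over no-Cre (0 higher, 1 lower, 476 genes in all), fitting only the 2 groups gave 3 higher, 4 lower and 1791 genes; DESeq2 gave 3 lower and 940 genes, and sex as a covariate 303 genes. Leaving out 1 library gave 0 to 2 higher, 0 to 2 lower and 104 to 1482 genes. It was 1482 without wild-type replicate 2, 291 without Lin28a-induced replicate 3, 174 and 209 without Lin28a-induced replicates 4 and 5, and 140, 104 and 106 without no-Cre replicates 6, 7 and 8. In Lin28a-induced over wild type (13 higher, 8 lower, 8050 genes), no filter gave 5 lower. Leaving out 1 library gave 11 to 18 higher, 5 to 8 lower and 7037 to 8211 genes. In no-Cre over wild type (14 higher, 5 lower, 6938 genes), fitting only the 2 groups gave 8 higher and sex as a covariate 9. Leaving out 1 library gave 7 to 15 higher, 3 to 5 lower and 5550 to 7319 genes. The cause of these shifts was not tested.

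Lin28a-induced and wild-type libraries share the numbers 2 and 3 without a stated link. With the number as a replicate block the 4 libraries gave 7 higher and 3 lower, together 10 of the 46, and 3596 of all genes. The same libraries without the block gave 7 of the 46 and 2651 of all genes. The correlation of deviations between the 2 pairs was -0.08. With 2 pairs this does not settle whether the numbers pair the libraries, and no label says that they do. No-Cre libraries share no number with another group, so no paired analysis was possible there. Depth was not low for these genes, which had at least 93 counts in every library.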
